A study of Mus musculus with 18 samples.

Results

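The genes of the nerve cells and glia that lie within the developing lung were followed in mouse embryos whose airway epithelium lacked Rptor, Tfam or Cox10. The set held 8 genes, chosen by symbol from the 23418 genes of the deposited tables. Phox2a, Ret, Tubb3, Elavl4 and Stmn2 stood for neurons, Sox10 and Erbb3 for glia and their neural crest precursors, and Gdnf for the ligand that Ret receives. The rule used their symbols and not their values. RNA-seq had been performed on lungs of embryos at 14.5 days post coitus (dpc), with 3 samples, called lungs below, in each of 6 groups. No pooling of lungs is described for this stage. Rptor-deficient lungs were Rptorf/f; ShhCre/+ and their littermate controls Rptorf/+; ShhCre/+. Tfam-deficient lungs (Tfamf/f; ShhCre/+) were set against Tfamf/+; ShhCre/+, and Cox10-deficient lungs (Cox10f/f; ShhCre/+) against Cox10f/+; ShhCre/+. Rptor encodes Raptor, a subunit of the growth-controlling kinase complex mTORC1, Tfam a factor that maintains mitochondrial DNA, and Cox10 an enzyme on the path to heme A, a cofactor of the last complex of the respiratory chain. Every lung, the controls included, carried a Cre allele knocked into Shh, so that a Shh allele was replaced throughout and each control had also lost 1 copy of the floxed gene in the cells with Cre. Cre from Shh acts in the epithelium, and neurons and glia were not its target. The question asked of each comparison was whether the loss of these genes from the epithelium went along with a change in neural transcripts of the whole organ.

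The nerve cells of the lung arise from vagal neural crest cells that leave the foregut and settle as small ganglia along the airways. Ret is the receptor tyrosine kinase through which such cells sense Gdnf, a secreted protein that draws them in and keeps them alive. Phox2a is a transcription factor of autonomic neurons. Tubb3 (a neuronal tubulin), Elavl4 (an RNA-binding protein) and Stmn2 (a regulator of microtubules) are used in most neurons whatever their origin. Sox10 is the transcription factor of crest cells and of the glia they form, and Erbb3 is the neuregulin receptor of these cells, which many epithelia also use.

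All 8 genes were found in each table and passed the filter on low values, a normalised read count of 10 or more in 3 of the 6 lungs of a line. A normalised read count is the number of reads of a gene divided by a scaling factor of the library. The 18 libraries summed to between 27727200 and 29611100 normalised reads and held 17671 to 17910 genes above 0. The 3 tables had been normalised separately, so that tests were made within a table, and levels in different tables are given side by side only. Mutants of different litters were combined in the study, which lungs shared a litter is not given in the sources used here, and the p-values below measure the spread between these samples, which may in part be technical.

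The neural transcripts were scarce next to Erbb3. Per kilobase of exon, control lungs of the Rptor, Tfam and Cox10 tables held 336, 212 and 299 normalised reads of Erbb3 and 34.5, 39.9 and 34.4 of Ret. Sox10 stood at 10.1, 42.5 and 41.6 reads per kilobase in the same order and Gdnf at 3.17, 3.48 and 5.45. Erbb3 was thus more than 3 times as abundant per length as any other member in all 3 sets of controls. Phox2a, Tubb3, Elavl4, Stmn2, Sox10 and Gdnf had lower mean levels in the Rptor controls than in the controls of the other tables, and whether this came from the embryos or the dissection was not tested. In GRCm38 (mm10) coordinates Ret lies at chr6:118151745-118197718 on the minus strand, Erbb3 at chr10:128567523-128589652 on the minus strand, Sox10 at chr15:79154908-79165240 on the minus strand and Gdnf at chr15:7810846-7837575 on the plus strand. Phox2a lies at chr7:101818313-101822726, Tubb3 at chr8:123411424-123422015 and Stmn2 at chr3:8509360-8561606, all on the plus strand, and Elavl4 at chr4:110203722-110351909 on the minus strand. Each value counts the reads of a whole gene. Phox2a shares 95 exonic bases (4.67% of its exon length) with Inppl1 on the opposite strand, and the strand setting of the counting is not given in the sources used here.

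**Figure D1:**
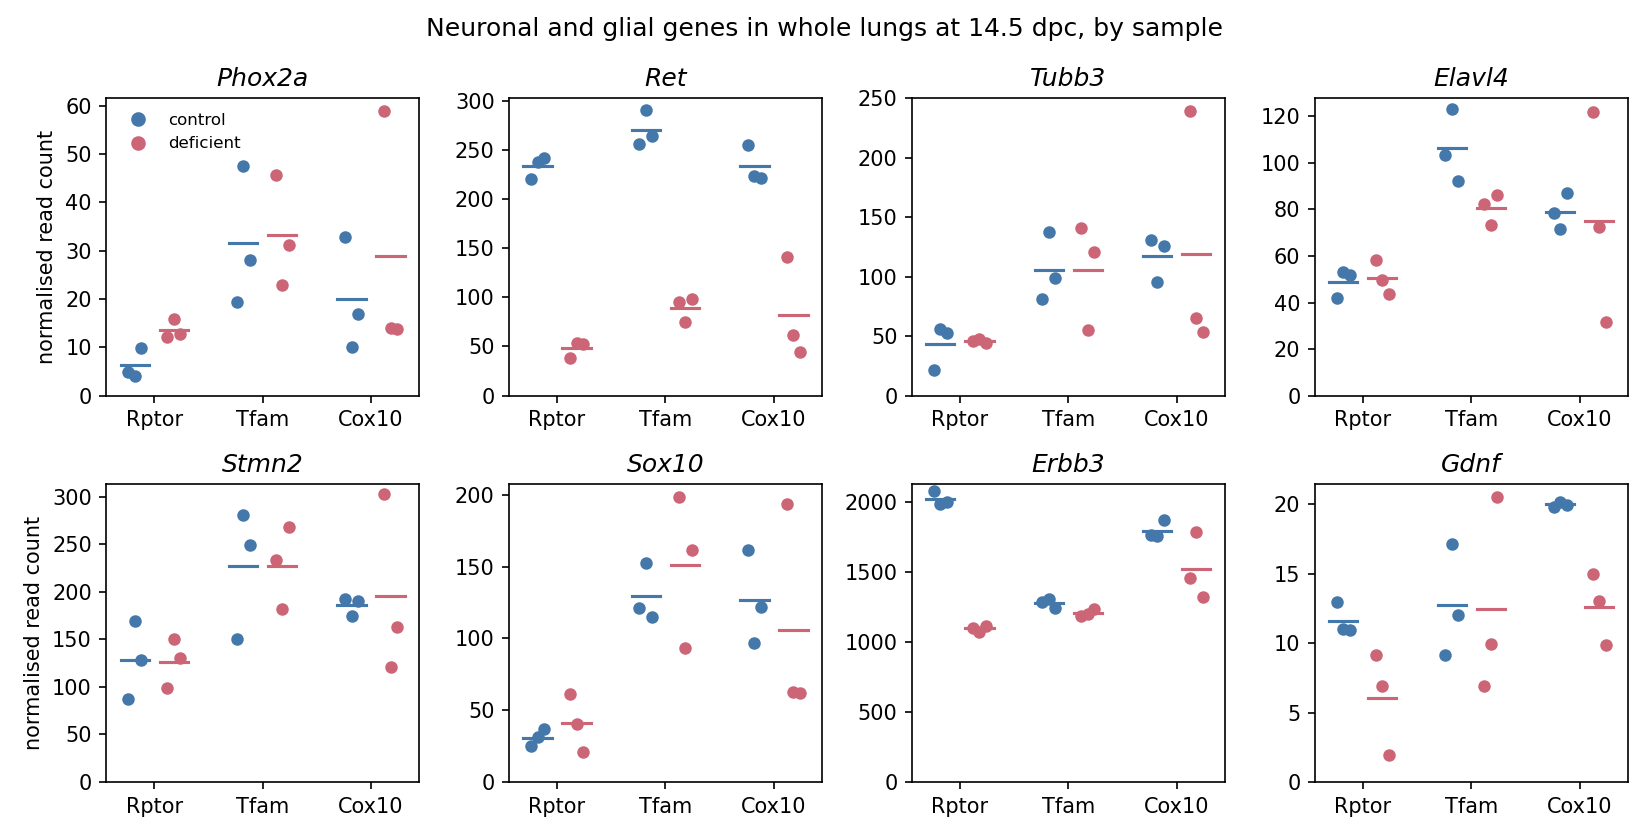
Normalised read counts (linear axis from 0) of the 8 genes in each lung, by deleted gene. Points are lungs, blue for controls and red for deficient lungs, and bars are means of 3. Ret lies lower in all 9 deficient lungs than in the controls of the same line, while Tubb3, Stmn2 and Sox10 overlap between the groups in every line.

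Ret fell in Rptor- and Tfam-deficient lungs, and its groups did not overlap in any of the 3 lines. In the Rptor line the controls had 220.4, 237.8 and 241.7 normalised reads and the deficient lungs 38.75, 53.48 and 52.37. The deficient mean of 48.2 ± 8.20 (SD, n = 3) was 20.7% of the control mean of 233.3 ± 11.3, and the log2 fold change was -2.26 ± 0.17 (SE; adjusted p = 6.78e-05, limma). All 3 deficient lungs lay far below the lowest control. In whole lungs, fewer cells of a type and less RNA per cell cannot be told apart, here and for every gene below.

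Tfam controls had 256, 290 and 264.1 normalised reads of Ret and Tfam-deficient lungs 95.28, 74.45 and 98.73, which left 33.1% of the control mean. The change was -1.59 ± 0.13 on the log2 scale (SE; adjusted p = 6.82e-05, limma). Again the highest deficient lung was far from the lowest control.

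Cox10 controls had 255.1, 222.9 and 220.9 reads of Ret and Cox10-deficient lungs 140.7, 61.34 and 44.48. The deficient mean was 35.3% of the control mean and the log2 fold change -1.66 ± 0.37 (SE), with an unadjusted p of 0.00206 and an adjusted p of 0.133 (limma), which missed the threshold of 0.05. The first Cox10-deficient lung stood well above the other two. Without it the log2 fold change was -2.13 and the adjusted p 0.0111, without the third, the lowest, they were -1.31 and 0.0883, and with the spread estimated from all 18 lungs the adjusted p was 0.0023 at the same fold change. Over the 6 fits that left out 1 lung of this line the adjusted p ran from 0.0111 to 0.514.

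The size of the fall in Ret was not shown to differ between the lines. The log2 fold change in the Rptor line minus that in the Tfam line was -0.67 ± 0.38 (SE; adjusted p = 0.27, limma interaction). The difference between the Rptor and Cox10 lines was -0.60 (adjusted p = 0.372) and that between the Tfam and Cox10 lines 0.07 (adjusted p = 0.995). The SE of each of these differences was 0.38.

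Of the 8 genes, 2 were called in the Rptor line (adjusted p below 0.05, limma), both lower, in a line where 34.8% of all genes tested were called and 18.2% were lower. Ret was the 1 of 8 called in the Tfam line, against 4.66% of all genes, of which 2.03% were higher and 2.63% lower. With Cox10 deleted 0 of 8 were called by limma, against 0.475% of all genes, and 3 of 8 had an unadjusted p below 0.05, these being Ret, Erbb3 and Gdnf. Over all genes tested, 45.6%, 17.4% and 13% had an unadjusted p below 0.05 in the Rptor, Tfam and Cox10 lines. Deficient and control lungs did not overlap for 4 of 8 members with Rptor deleted, where 50.3% of all genes did not. With Tfam deleted this held for 3 of 8 members against 22.8% of all genes, and with Cox10 deleted for 2 of 8 against 21.3%. In the Rptor line Phox2a and Gdnf, both in this tally, had passed the filter through a single group. With 8 members these counts were too small to be told from the shares over all genes, and Ret was the only member whose groups stayed apart in all 3 lines. No member was called lower in every line, as 0.296% of all genes were.

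**Figure D2:**
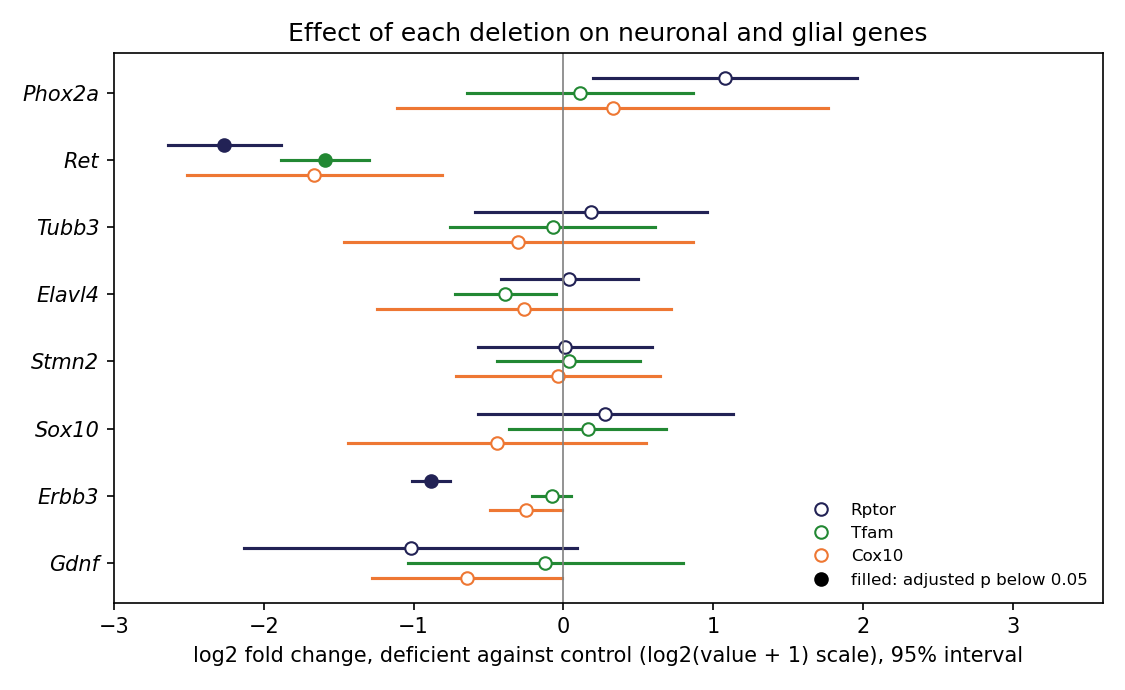
Log2 fold change of deficient against control lungs (log2(value + 1) scale) for the 8 genes, with 95% intervals from limma, by line. Filled points have an adjusted p below 0.05: Ret in the Rptor and Tfam lines and Erbb3 in the Rptor line.

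Tubb3, Elavl4, Stmn2 and Phox2a were not called in any line. Tubb3 had 21.94, 55.95 and 52.72 normalised reads in Rptor controls and 45.89, 47.53 and 44.47 in Rptor-deficient lungs, a log2 change of 0.19 (95% interval -0.59 to 0.96, adjusted p = 0.701). Tfam controls had 81.28, 137.4 and 99.03 reads of Tubb3 and Tfam-deficient lungs 140.9, 55.59 and 121.2, and both means were 105.9. Cox10 controls had 131, 95.82 and 125.9 reads of Tubb3 and Cox10-deficient lungs 239.5, 65.36 and 53.38, with an interval from -1.47 to 0.86. The groups overlapped in each line, and the intervals leave room for changes of up to nearly 1 on the log2 scale or more.

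Stmn2 was measured more tightly and lay close to its control level. Its log2 fold change was 0.01 with Rptor deleted (95% interval -0.57 to 0.59), 0.04 with Tfam deleted (-0.44 to 0.51) and -0.03 with Cox10 deleted (-0.71 to 0.65). In each line the interval for Stmn2 did not reach the fall estimated for Ret, whose own intervals ran from -2.64 to -1.89, from -1.89 to -1.30 and from -2.51 to -0.81. The lowest Stmn2 value of the Rptor line, 86.76 reads, was that of a control, and the highest, 169.8 reads, was also that of a control.

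Elavl4 had 41.88, 52.95 and 51.72 reads in Rptor controls and 58.13, 49.51 and 43.48 in Rptor-deficient lungs. Its log2 fold change there was 0.04 (95% interval -0.42 to 0.50). Tfam controls had 103.6, 123.3 and 92.03 reads of Elavl4 and Tfam-deficient lungs 82.38, 73.46 and 86.02, so that the groups did not overlap, yet the log2 fold change of -0.39 ± 0.15 (SE) did not pass (adjusted p = 0.214, limma). Cox10-deficient lungs had 121.7, 72.4 and 31.63 reads around controls of 71.61 to 86.95.

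Phox2a was higher in every Rptor-deficient lung than in every control, without passing the test. In the Rptor line it had 4.986, 3.996 and 9.947 reads in controls and 12.24, 15.84 and 12.85 in deficient lungs, and it passed the filter only through the deficient group. The groups did not overlap and the log2 fold change was 1.08 ± 0.39 (SE), with an adjusted p of 0.0598 (limma), on fewer than 20 reads a lung. Without the third control the log2 fold change was 1.41 and the adjusted p 0.0322. Since Phox2a entered the test only through the group where it was high, neither p-value is counted as support. With Tfam deleted Phox2a had 19.3, 47.5 and 28.01 reads in controls and 45.65, 22.83 and 31.28 in deficient lungs, and in the Cox10 line 32.75, 10.09 and 16.99 against 58.88, 14.08 and 13.84. The groups overlapped in both of these lines, with adjusted p-values of 0.906 and 0.835.

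Set against the other neuronal genes of the same lung, Ret was lower in every deficient lung than in every control of the study. For each lung the mean log2 level of Tubb3, Elavl4 and Stmn2 was subtracted from the log2 level of Ret, with no test, since the reference genes were chosen with the results known. This difference was 1.88 ± 0.39 (SD, n = 3) in Rptor controls and -0.46 ± 0.23 in Rptor-deficient lungs. Tfam controls had 1.01 ± 0.23 and Tfam-deficient lungs -0.44 ± 0.14, while Cox10 controls had 0.95 ± 0.15 and Cox10-deficient lungs -0.51 ± 0.068. The first Cox10-deficient lung, which had over 2 times the Ret of the other two, was no longer apart from them on this scale, with a value of -0.551 beside -0.43 and -0.543.

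Over the 9 deficient lungs of the 3 lines the difference lay between -0.714 and -0.269, and over the 9 controls between 0.782 and 2.32. Across the 9 deficient lungs Ret rose with the mean of the other neuronal genes (Pearson r = 0.973, Spearman rho = 0.95), and r was 0.952 without the first Cox10-deficient lung. Across the 9 controls r was 0.623 and rho 0.667, and Ret varied little. These correlations are descriptions over lungs that share a line and a table in groups of 3. The plot of Ret against the other neuronal genes shows the deficient lungs along a rising line and the controls in a band above them.

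**Figure D3:**
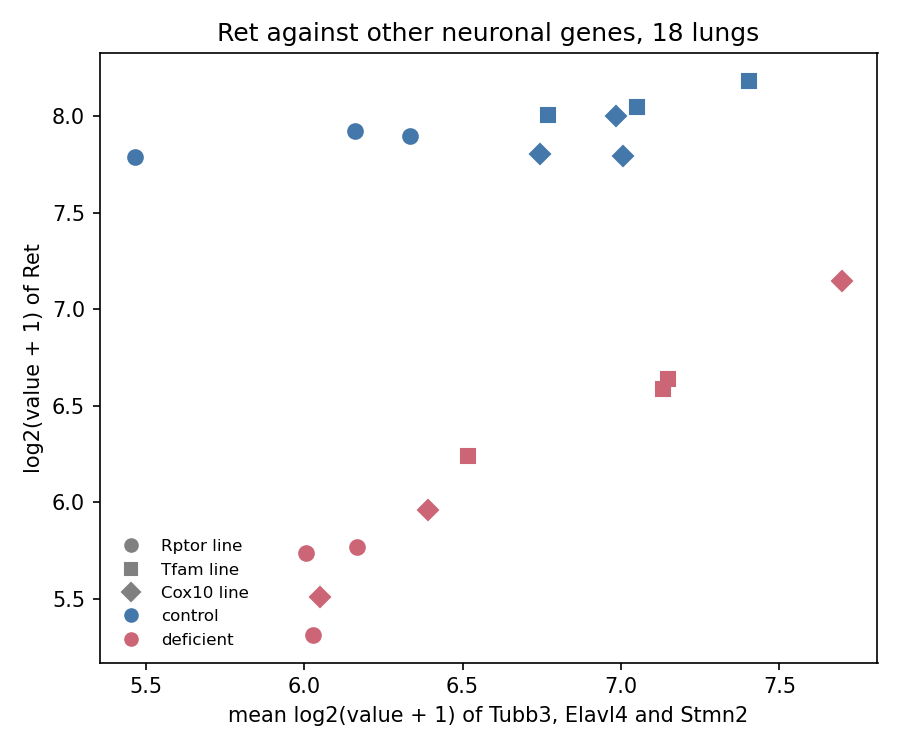
Level of Ret (vertical axis) against the mean of Tubb3, Elavl4 and Stmn2 (horizontal axis), both as log2(normalised read count + 1), in 18 lungs. Colours give the group and symbols the line, whose tables were normalised separately. All 9 deficient lungs lie below all 9 controls, and among them Ret rises with the other neuronal genes (r = 0.973).

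The epithelial markers as a sum were lower in the deficient groups, as Ret was, and their part in its fall was not tested. Of 12 epithelial markers, 11 were lower in Rptor-deficient lungs, 5 in Tfam-deficient lungs and 2 in Cox10-deficient lungs, with no marker higher. Their summed level was 35850 to 36670 normalised reads in Rptor controls and 15710 to 20460 in the deficient lungs. For Tfam the sums were 33450 to 35550 and 27830 to 30860, and for Cox10 27070 to 27800 and 18690 to 25100. The sum of these markers was thus lower in every deficient lung than in each control of its line, as Ret was. Within the Cox10-deficient lungs the order was reversed, with sums of 18690, 20520 and 25100 beside Ret values of 140.7, 61.34 and 44.48. Within the Rptor- and Tfam-deficient lungs the order was shared in part. Airway smooth muscle, which the nerves of the lung supply, moved too, with 6 of 9 markers lower and 1 (Acta2, actin of smooth muscle) higher for Rptor (Acta2 not without control 2 or 3 or the first deficient lung, adjusted p = 0.056 to 0.145), 6 lower for Tfam and 1 (Myocd) lower for Cox10. With all 18 lungs in a single fit 1 smooth muscle and 3 epithelial markers were called for Tfam, and 1 and 6 for Cox10. Leaving out 1 lung at a time gave 4 to 7 smooth muscle calls for Rptor, the lowest without the first control, 4 to 7 for Tfam and 0 to 3 for Cox10, where Myocd lost its call without any 1 control or the second deficient lung (adjusted p = 0.0775 to 0.188). Epithelial calls ranged from 2 (without the first deficient lung) to 5 for Tfam and from 0 to 9 for Cox10 in these fits.

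Most pairs of neural genes varied from lung to lung in common, apart from any effect of genotype. After each value was centred on the mean of its group, Tubb3 and Stmn2 had r = 0.827 (rho = 0.763) over the 18 lungs, Tubb3 and Sox10 r = 0.792 (rho = 0.789), Ret and Tubb3 r = 0.822 (rho = 0.719) and Phox2a and Sox10 r = 0.751 (rho = 0.742). Without the first Cox10-deficient lung these values were 0.756, 0.690, 0.701 and 0.640. These are 4 of the 15 pairs of the 5 neuronal genes and Sox10, whose r ran from 0.433 (Elavl4 and Stmn2) to 0.827 with a median of 0.751, and whose rho ran from 0.276 (Ret and Elavl4) to 0.820. Without the first Cox10-deficient lung r ran from 0.172 (Elavl4 and Stmn2) to 0.756 with a median of 0.607. Erbb3 had r = -0.167 (rho = -0.185) to Sox10 and from -0.372 to 0.398 to the 5 neuronal genes. Without that lung its values to the neuronal genes ran from -0.339 (Stmn2) to 0.647 (Elavl4).

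Of the Cox10-deficient lungs, the first stood furthest from its group mean for most neural genes and the third over all genes. The third differed from the first and second by a chi-square per gene, which is about 1 for sampling noise alone, of 26.5 and 30.2, against 7.88 between those, and it lay furthest from the group mean for Elavl4, at -1.03 on the log2 scale. The first was the highest of its group for Phox2a, Ret, Tubb3, Elavl4, Stmn2 and Sox10, by 1.33, 0.94, 1.33, 0.88, 0.73 and 1.08 above the group mean on the log2 scale. Its summed heart muscle markers were 8101 normalised reads, against 1573 and 1414 in the other two Cox10-deficient lungs and 1483 to 8117 in the controls. Its oesophagus and stomach markers summed to 1241 reads, against 946.3 and 540.7 and against 848.3 to 1084 in controls. The first Tfam-deficient lung also had the highest sum of heart muscle markers in its group, 30260 reads against 11160 and 11440 and against 6769 to 16970 in controls, and lay above its group mean for Phox2a (0.50), Tubb3 (0.51) and Sox10 (0.46). Whether tissue next to the lung took part in these levels was not tested.

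Without the first lung, Tubb3 had a log2 fold change of -0.97 in the Cox10 line, Elavl4 -0.70, Stmn2 -0.40 and Sox10 -0.98, with adjusted p-values of 0.139 to 0.432, and Phox2a turned from 0.33 to -0.34. Without the third instead, Tubb3 had 0.10, Elavl4 0.25, Stmn2 0.04, Sox10 -0.17 and Phox2a 0.67. Leaving out 1 lung at a time turned the direction of Phox2a, Tubb3, Elavl4 and Stmn2 in the Cox10 line, and not that of Ret.

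**Figure D4:**
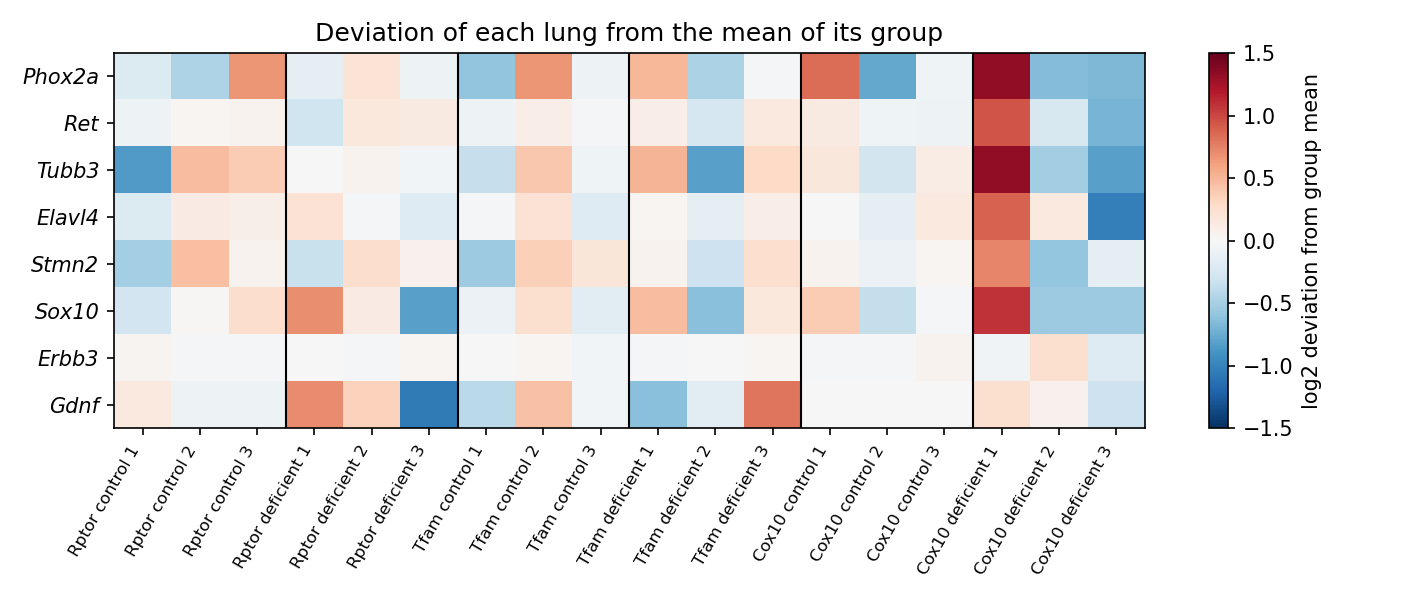
Deviation of each lung (columns) from the mean of its group for the 8 genes (rows), as log2(normalised read count + 1), red above and blue below. In the first Cox10-deficient lung the 5 neuronal genes and Sox10 are all red, with Tubb3 and Phox2a 1.33 above the group mean, while in the Rptor line the neuronal genes and Sox10 differ in sign within several lungs. Erbb3 stays pale throughout.

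By a fixed rule, the genes whose lung-to-lung pattern was most like the mean of the 5 neuronal genes were Ngfr (r = 0.934), Spon1 (0.919), Nefl (0.912), Gap43 (0.903) and Vat1l (0.891). They were the first 5 of 13683 genes compared over the 18 group-centred lungs. Ngfr encodes the low-affinity neurotrophin receptor, Nefl a neurofilament subunit and Gap43 a protein of growing axons. Those most like Sox10 were Tmc7 (0.909), Ntrk3 (0.899), Wbscr17 (0.894), Sh3bgr (0.887) and Kif5a (0.875), of which Ntrk3 is the receptor for neurotrophin 3 and Kif5a a neuronal kinesin. The best matches have high values in part because they were picked from so many genes. They were not computed without the first Cox10-deficient lung, which stood far above its group mean for the neuronal genes and Sox10.

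Sox10 was not called in any line. It had 24.93, 30.97 and 36.8 normalised reads in Rptor controls and 61.19, 40.6 and 20.75 in Rptor-deficient lungs, which enclosed the controls (log2 fold change 0.28, 95% interval -0.57 to 1.13, adjusted p = 0.591). Tfam controls had 120.9, 152.6 and 115 reads of Sox10 and Tfam-deficient lungs 198.5, 93.31 and 161.3. Cox10 controls had 161.8, 96.83 and 121.9 and Cox10-deficient lungs 193.6, 62.35 and 62.28, the first of these being the lung described above. These changes were 0.16 and -0.44 on the log2 scale, with adjusted p-values of 0.785 and 0.666.

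Erbb3 fell in Rptor-deficient lungs to 54.3% of control. The controls had 2080, 1988 and 2003 normalised reads and the deficient lungs 1103, 1074 and 1118, so that the groups lay far apart next to the spread within them. On the log2 scale this was a change of -0.88 ± 0.056 (SE; adjusted p = 3.62e-05, limma). Tfam controls had 1286, 1306 and 1242 reads and Tfam-deficient lungs 1188, 1205 and 1239, a change of -0.08 ± 0.059 (adjusted p = 0.543) with the groups just apart. Cox10 controls had 1764, 1759 and 1871 reads and Cox10-deficient lungs 1456, 1789 and 1326, a change of -0.25 ± 0.10 (adjusted p = 0.370).

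The effect on Erbb3 differed between the lines by a test of the difference itself. Its log2 fold change with Rptor deleted minus that with Tfam deleted was -0.80 ± 0.11 (SE; adjusted p = 2.27e-04, limma interaction), and minus that with Cox10 deleted -0.63 (adjusted p = 0.00173). Such a difference was called for 11.2% and 7.48% of all genes. The Tfam and Cox10 lines were not shown to differ (0.17, adjusted p = 0.977), as for all but 0.055% of genes. Erbb3 was the only member with a called difference in either contrast with the Rptor line.

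Erbb3 was far more abundant per length than Sox10 in these whole lungs and had a correlation to it near 0 from lung to lung. Outside the Cox10-deficient lungs Erbb3 varied little within its groups, so that little weight rests on this correlation. Relative to the epithelial genes Epcam, Cdh1 and Nkx2-1, the log2 level of Erbb3 was -1.36 ± 0.015 (SD, n = 3) in Rptor controls and -1.07 ± 0.21 (SD, n = 3) with Rptor deleted. The difference was 0.29, with every deficient lung above every control (exact permutation test, two-sided, p = 0.1, the smallest that 3 against 3 can give). For Tfam the difference was 0.19 (exact permutation p = 0.1) and for Cox10 0.15 (exact permutation p = 0.6). The sign and separation depended on the reference, since Cdh1 alone gave 1.01 in the Rptor line without overlap, Epcam alone -0.11 and Nkx2-1 alone -0.03, both with overlap. For Tfam these 3 references gave 0.47, -0.03 and 0.14, and for Cox10 0.18, 0.05 and 0.20 (single references chosen after the data were seen). A reference of Krt8, Krt18 and Spint2 had been planned as an alternative. These genes changed by -1.35, -0.98 and -0.45 in the Rptor line, and relative to their mean Erbb3 overlapped between the groups there. In the Rptor line Erbb3 thus fell by about as much as Epcam and Nkx2-1 and by less than Cdh1, and the part that epithelial cells took in its level was not tested.

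Gdnf was near the limit of what this depth can resolve. It had 12.96, 10.99 and 10.94 normalised reads in Rptor controls and 9.178, 6.932 and 1.976 in Rptor-deficient lungs, and it passed the filter only through the controls. This gave a log2 fold change of -1.02 ± 0.49 (SE; adjusted p = 0.138, limma). Tfam controls had 9.144, 17.18 and 12 reads of Gdnf and Tfam-deficient lungs 6.947, 9.927 and 20.53, with overlap (log2 fold change -0.12, adjusted p = 0.919). Cox10 controls had 19.85, 20.17 and 19.99 and Cox10-deficient lungs 14.97, 13.07 and 9.885, without overlap (log2 fold change -0.64 ± 0.27, adjusted p = 0.380). Gdnf was thus lower on average in every deficient group and called in none. The genes most like Gdnf over the 18 group-centred lungs were Gabbr1 (r = 0.884), Ttll3 (0.856), Gm14137 (0.853), Ptgfr (0.835) and 4930579G18Rik (0.833).

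Gfra2 and Ncam1, which also belong to the receptors of the GDNF family, were higher in Rptor-deficient lungs while Ret was lower. Of its 10 listed ligands and receptors, 8 were tested in the Rptor line, with 2 higher and 2 lower, in a line where 34.8% of all genes were called, and with a median log2 fold change of 0.23, against 0.01 for all genes tested. Gfra2, the co-receptor for neurturin, had 1117, 1463 and 1158 normalised reads in Rptor controls and 2495, 2926 and 4245 in deficient lungs (log2 fold change 1.34 ± 0.18, adjusted p = 0.00107, limma). Ncam1, a cell adhesion molecule that also receives GDNF, rose from a mean of 854.4 to 2103 reads (log2 fold change 1.30 ± 0.079, adjusted p = 3.06e-05). The gene that was lower beside Ret was Nrtn, the ligand neurturin, named after its values were seen (102 to 56.84 reads, log2 fold change -0.83, adjusted p = 0.0201), which lost its call without the first control (0.0714).

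With Tfam deleted all 10 genes of the family were tested, with Gfra2 higher (log2 fold change 0.52 ± 0.096, adjusted p = 0.0111), Ret lower and a median of -0.19, where 4.66% of all genes were called. The call for Gfra2 was lost with all 18 lungs in a single fit (adjusted p = 0.514), without the second deficient lung (0.0531) and without the third (0.0606). With Cox10 deleted 0 of 10 were called by limma and 2 of 10 had an unadjusted p below 0.05. Gfra2 had 663.6, 457.5 and 1911 reads in Cox10-deficient lungs against 430.7 to 607.4 in controls, so that the third lung alone carried its mean.

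The other neuronal and glial genes that were called did not all move one way. Of 25 pan-neuronal genes, 20 were tested in the Rptor line, with 2 higher, 1 lower and a median log2 fold change of 0.19, where 34.8% of all genes were called. Dcx, a microtubule protein of young neurons, rose from 1570 to 3717 reads (log2 fold change 1.24 ± 0.098, adjusted p = 9.91e-05), and Map2, a protein of dendritic microtubules, from 1023 to 1529 (0.58, adjusted p = 0.00101). Uchl1, an abundant neuronal ubiquitin hydrolase that also marks neuroendocrine cells, fell from 876 to 356.5 reads (-1.30 ± 0.11, adjusted p = 1.21e-04). With Tfam deleted 1 of 23 rose, Dcx (0.39, adjusted p = 0.0137), and 1 fell, Uchl1 (-0.52, adjusted p = 0.0261), where 4.66% of all genes were called. Dcx lost this call without the third deficient lung (adjusted p = 0.0613), and Uchl1 without control 1 or 2 or deficient lung 2 or 3 (0.0621 to 0.111) or with all 18 lungs in a single fit (0.0812). With Cox10 deleted 0 of 23 were called by limma within the line and 3 had an unadjusted p below 0.05. With all 18 lungs in a single fit Uchl1 (adjusted p = 0.0338) and Map2 (log2 fold change 0.61, 0.0171) were called there, as were Ddc (0.0137), Ngfr (0.0151), Mbp (-0.43, 0.00924) from other lists, and Ret. The log2 fold changes furthest from 0 there were those of Scg3 (-0.74, adjusted p = 0.624) and Uchl1 (-0.64, adjusted p = 0.207).

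Of 12 transcription factors of autonomic neurons, 10 were tested in the Rptor line, with 2 higher and 2 lower, where 34.8% of all genes were called. Hoxb5, a factor of vagal crest cells and of lung mesenchyme, named after its values were seen, was higher by 0.32 on the log2 scale (adjusted p = 0.0344), and not past the threshold without any 1 control (0.0683 to 0.104). Insm1, a zinc-finger factor of neuroendocrine cells and young neurons and 1 of those lower, fell from 27.58 to 5.963 reads (-2.19, adjusted p = 0.00596). Isl1, a homeodomain factor, had a log2 fold change of 0.67 with an adjusted p of 0.05, just under the threshold, and lost its call with the replicate block (adjusted p = 0.0518), with all 18 lungs in a single fit (0.0909) and in 5 of 6 fits that left out 1 lung (0.0728 to 0.158). With Tfam deleted 11 were tested, with 0 higher and 1 lower, a call lost with all 18 lungs in a single fit. With Cox10 deleted 0 of 11 were called by limma, with 0 at an unadjusted p below 0.05. Gata3 (0.46, adjusted p = 0.437) and Hand2 (-0.44, adjusted p = 0.777), both factors of sympathetic neurons, lay furthest from 0 among those with a mean of at least 20 reads, and Tlx2, below that mean, had 0.50 (adjusted p = 0.751). Insm1 also belongs to a list of 12 neuroendocrine markers. Of these, 7 were tested in the Rptor line, with 1 higher (Piezo2) and 2 lower, and 7 in the Tfam line, with 0 higher and 1 lower. Of the 8 neuroendocrine markers tested for Cox10, 0 were called by limma and 1 had an unadjusted p below 0.05.

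Of 17 genes for transmitters and neuropeptides, only 5 were abundant enough to be tested for Rptor, 9 for Tfam and 10 for Cox10. In the Rptor line Chrnb4, a nicotinic receptor subunit, had a mean of 6.648 reads in controls and 18.01 in deficient lungs (log2 fold change 1.32, adjusted p = 0.0108), having passed the filter only through the deficient group, so that its call is not counted as support. Ache, acetylcholinesterase, rose from 23.27 to 42.97 reads (0.87, adjusted p = 0.02), the latter not past the threshold without the third control (0.0673) or the third deficient lung (0.0649). No gene of this list was called by limma in the other lines, with 3 and 1 at an unadjusted p below 0.05. Ddc, an enzyme of dopamine and serotonin synthesis, had a log2 fold change of -0.32 for Tfam (adjusted p = 0.0898) and -0.45 for Cox10 (adjusted p = 0.116). Of 11 genes of vagal sensory neurons, 4 were tested in the Rptor line and 1 called, where 34.8% of all genes were called. This was Piezo2, a touch-sensitive ion channel, which was higher (0.62, adjusted p = 0.00267, limma). Piezo2 is also on the neuroendocrine list, and it had 2555 reads in Rptor controls beside 43.54 of Tubb3. The cells that gave it were not identified. None of 6 and 5 vagal genes was called by limma for Tfam and Cox10, with 3 and 1 at an unadjusted p below 0.05.

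Of 18 genes of glia and neural crest, 13 were tested in the Rptor line and 3 called, where 34.8% of all genes were called. Erbb3 was lower, as was Mbp, myelin basic protein (909.8 to 553.2 reads, log2 fold change -0.71, adjusted p = 6.94e-04), and Ednrb, the endothelin receptor of crest cells, was higher (4202 to 5636 reads, 0.42, adjusted p = 5.41e-04). The median of the list was 0.10. In the Tfam and Cox10 lines 0 of 16 and 0 of 14 were called by limma, with 3 and 4 at an unadjusted p below 0.05. Ttyh1, a membrane protein of glia, came closest for Tfam, with a log2 fold change of -0.50 and an adjusted p of 0.0501. Ngfr had 647.1, 515.4 and 610.6 normalised reads in Cox10 controls and 427.1, 214.2 and 192.8 in Cox10-deficient lungs, without overlap (log2 fold change -1.17 ± 0.27, adjusted p = 0.154). Among 7 neuregulin ligands and receptors, Erbb4 (1.47, adjusted p = 0.00242) and Nrg2 (0.77, adjusted p = 0.00403) were higher in the Rptor line and no gene was called in the other lines, where 1 gene each had an unadjusted p below 0.05.

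Signals that steer nerves and crest cells were called in every line. All 21 listed neurotrophins and guidance cues were tested in each line, with 6 higher and 6 lower for Rptor, 3 and 4 for Tfam and 2 and 2 for Cox10, where 34.8%, 4.66% and 0.475% of all genes were called. Leaving out 1 lung at a time gave 10 to 12 calls for Rptor, 4 to 7 for Tfam (the lowest without the first control) and 0 to 6 for Cox10, with 0 without any 1 control and 1 without the second deficient lung. The medians were 0.18, -0.03 and -0.06. Slit3 and Sema3a, a repellent pair named after their values were seen, were among those higher for Rptor (0.72 and 0.54, adjusted p = 0.00108 and 0.00888). Over all genes, 0.392% were called with the same sign in all 3 lines.

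Edn3, the endothelin that holds crest-derived cells in an undifferentiated state through Ednrb, was lower in every deficient lung than in any control of its line. It had 842.7, 949.1 and 798.7 normalised reads in Rptor controls and 312, 316.9 and 338 in deficient lungs (log2 fold change -1.42 ± 0.091, adjusted p = 3.93e-05, limma). Deletion of Tfam changed Edn3 by -0.92 (adjusted p = 2.89e-04) and deletion of Cox10 by -0.90 (adjusted p = 0.00668), the latter call being lost without any 1 control (0.063 to 0.104). The effect of Rptor minus that of Tfam was -0.50 (adjusted p = 0.0219, limma interaction), and minus that of Cox10 -0.51 (adjusted p = 0.0232).

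Sema3e, a repellent semaphorin, fell in all 3 lines (-0.80, -0.29 and -0.64, adjusted p = 4.04e-04, 0.0351 and 0.0253). Plxna4, a semaphorin receptor, rose in all 3 (1.36, 0.79 and 0.76, adjusted p = 9.76e-05, 0.0259 and 0.0319), although its call in the Cox10 line was lost with the replicate number as a block (adjusted p = 0.0545). Without any 1 control or the second deficient lung Plxna4 was not called in the Cox10 line (0.0872 to 0.229), nor in the Tfam line without control 1 or 3 or deficient lung 1 or 2 (0.0539 to 0.117). Sema3e lost its Cox10 call in 5 of 6 fits that left out 1 lung, all but that without the third deficient lung (0.0534 to 0.19), and its Tfam call in 5 of 6, all but that without the third control (0.0725 to 0.154), and with all 18 lungs in a single fit (0.0619). Sema3d, another semaphorin, rose by 1.40, 0.55 and 0.59 (adjusted p = 7.86e-04, 0.00566 and 0.0253), and its Cox10 call was lost without any 1 control or the second deficient lung (0.0753 to 0.21). Ntn1, the axon guide netrin 1, fell by 1.38 on the log2 scale in the Rptor line and by 1.15 in the Tfam line (adjusted p = 3.31e-05 and 6.25e-05), while its change of -1.48 in the Cox10 line missed the threshold (adjusted p = 0.0798) and passed it with all 18 lungs in a single fit (4.2e-04). None of these cues is made by neurons alone, and the cells that gave these transcripts were not identified.

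**Figure D5:**
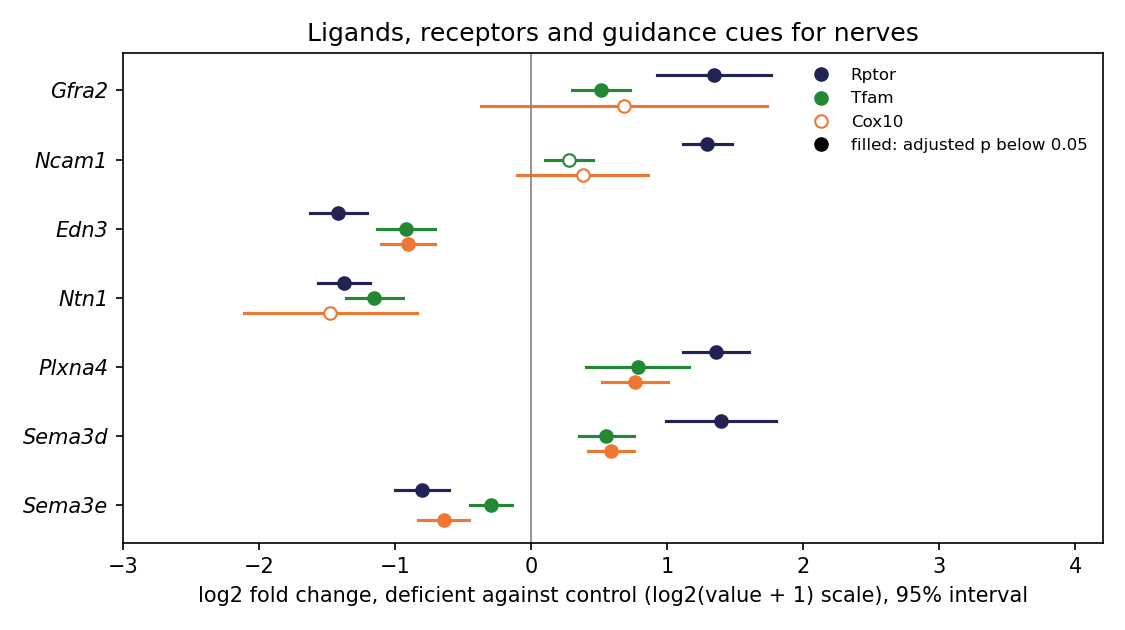
Log2 fold change of deficient against control lungs (log2(value + 1) scale), with 95% intervals from limma, for receptors of the GDNF family and for guidance cues named by the fixed rule. Filled points have an adjusted p below 0.05. Edn3 and Sema3e are lower, and Plxna4 and Sema3d higher, in all 3 lines.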

How the data were processed

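Whole lungs at 14.5 dpc were measured in 18 samples, grouped by the sample titles. Per the labels, the authors used Trim Galore, HISAT2, featureCounts and DESeq2 with mm10, and the versions are not given in the sources used here. The deposited values were a normalised signal per gene, the read count divided by a size factor of the library. Deposited fold changes and p-values were not used.

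Values were tested as log2(value + 1) with limma 3.58.1 (R 4.3.3; lmFit, eBayes with trend), within each line, on genes with a value of at least 10 in 3 of 6 samples. P-values were adjusted by Benjamini-Hochberg over all genes tested (threshold 0.05). Differences between lines were contrasts in a model of 6 groups over 14550 genes. A fold change on this scale understates the change of low genes. Plots and counts used Python 3.11.15. The members and gene lists were chosen with earlier results of these data known. The 8 genes were named throughout, and from each list up to 3 genes past the threshold with the largest change, or up to 2 with a mean of at least 20 where none passed. A gene that this rule would name is not reported here. Genes of like pattern were the 5 with the highest Pearson r among genes with a mean of at least 20 in each table.

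In the Rptor line, lungs with the same replicate number deviated together (correlations 0.221, 0.33 and 0.259 for numbers 1, 2 and 3). The titles give a number and do not state that it pairs lungs. The main tests therefore used no pairing, and the number was a block only in an alternative fit. No pair of replicates agreed within sampling noise (chi-square per gene 3.96 to 30.2 over 18 pairs).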

Additional observations from a re-analysis of the deposited data

Results flagged for a closer look

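The effect of the deletion on Erbb3 differed between the lines by an interaction test across all genes (limma). The log2 fold change in the Rptor line minus that in the Tfam line was -0.803, and minus that in the Cox10 line -0.631. Groups of 3 lungs were too small to be tested for outlying samples.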

How the results depend on the processing

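Count-based tests with edgeR and DESeq2, planned as alternatives, were not run, because the deposited values are scaled. In each library the values were whole multiples of a smallest step, which lay between 0.978 and 1.02. Read counts were not rebuilt from these steps. Of 2167 alternative values, 1954 kept their direction and side of the threshold or, for counts of calls, stayed within 1.5 times the main count. With all 18 samples in one fit, 1 member (Ret) was called in the Cox10 line in place of 0. When 1 replicate was left out at a time, members called ranged from 2 to 3 for Rptor, stayed at 1 for Tfam and ranged from 0 to 1 for Cox10, the extra calls being Phox2a and Ret. In the Rptor line Phox2a had passed the filter only through the deficient group, so that its call is not counted as support. The log2 fold changes that changed sign in these fits were all of genes that were not called. In the Rptor line Tubb3 ranged from -0.236 to 0.419, Elavl4 from -0.0653 to 0.14, Stmn2 from -0.241 to 0.24 and Sox10 from -0.0678 to 0.69. With Tfam deleted Phox2a ranged from -0.185 to 0.443, Tubb3 from -0.329 to 0.335, Stmn2 from -0.234 to 0.214, Sox10 from -0.0661 to 0.474 and Gdnf from -0.522 to 0.196. With Cox10 deleted Phox2a ranged from -0.336 to 0.75, Tubb3 from -0.968 to 0.105, Elavl4 from -0.704 to 0.251 and Stmn2 from -0.4 to 0.259. The difference in Ret between the Tfam and Cox10 lines ranged from -0.279 to 0.541. With single epithelial genes as the reference, an alternative added after seeing the data, Erbb3 against Epcam turned to -0.109 for Rptor and -0.0302 for Tfam, and against Nkx2-1 to -0.0261 for Rptor. With the replicate number as a block, members called stayed at 2 for Rptor, 1 for Tfam and 0 for Cox10, and the adjusted p of Ret in the Cox10 line was 0.0749. Among the genes named for Rptor the block ended no call but that of Isl1. The block gave 5768 calls over all genes for Rptor in place of 5202, 802 for Tfam in place of 702 and 48 for Cox10 in place of 71. Lungs of the same number did not deviate together throughout for Tfam (correlations -0.312, -0.207 and 0.151) or Cox10 (0.447, 0.202 and 0.0488). In every line the lungs are known to share only a number. With all 18 samples in one fit, calls over all genes were 399 for Tfam and 327 for Cox10. Depth limits Phox2a in the Rptor line and Gdnf throughout, where most lungs held under 21 reads.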
